A study of Mus musculus with 4 samples.

Results

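The small leucine-rich proteoglycans described here are 10 genes, Dcn, Lum, Bgn, Fmod, Ogn, Aspn, Kera, Prelp, Omd and Podn, picked by symbol from the 32285 genes counted in spatial transcriptomic sections of injured mouse muscle. The sections came from tibial muscle of Nse-Bmp4 mice on a C57BL/6 background, 6 to 8 weeks old, whose transgene drives Bmp4 from the rat neuron-specific enolase promoter. One section was uninjured (day 0) and the others were taken on days 1, 3 and 7 after injection of cardiotoxin, a snake venom toxin that kills muscle fibres. Each group was 1 section, and the labels state that 3 tibial muscles were mixed for a group. All 4 sections carried the transgene, so every change below is one of time after injury in these mice, and a section without the transgene was not analysed here. With 1 section per day there is no replicate spread and no test between days. The intervals given are 95% intervals for counting error only, and a difference larger than counting error may still be a difference between sections.

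Small leucine-rich proteoglycans are secreted matrix proteins built around a curved stack of leucine-rich repeats, with which most of them bind collagen fibrils and set fibril spacing and width. Decorin and biglycan carry chondroitin or dermatan sulphate chains and also bind TGF-beta family growth factors, while lumican, fibromodulin, keratocan and osteomodulin can carry keratan sulphate. In muscle they are mainly products of connective tissue cells, and several are abundant in tendon, cartilage and bone. In Nse-Bmp4 mice, muscle injury leads to heterotopic ossification, in which cartilage and bone form inside the muscle.

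The sections held 2107, 2667, 3029 and 3032 spots over tissue on days 0, 1, 3 and 7 and 43871586, 16777832, 56113066 and 41832640 unique molecular identifiers (UMIs, each standing for 1 captured RNA molecule). The median spot held 21029 UMIs on day 0, 6322 on day 1, 16087 on day 3 and 12119.5 on day 7, so that the day 1 values rest on the fewest molecules. A spot covers several cells or parts of fibres. The 4 sections shared 1341 spot barcodes, which mark positions on the slide and not cells. Adult myofibre RNA (12 genes such as Ckm and Acta1) took 24.8% of UMIs on day 0, 13.5% on day 1, 8.26% on day 3 and 14.5% on day 7. Fibre RNA was thus present in every section, as the tissue label has it. Levels are given as CPM, the UMIs of a gene scaled to a section total of 1000000, a scale on which a fall in fibre RNA raises every other gene. In whole sections, fewer cells of a type and less RNA per cell cannot be told apart. The UMIs were not divided by gene length. Levels of different genes are not ranked against each other, and shares and ratios between genes are given in UMIs.

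Most of the 10 genes lie next to each other in groups. On the GRCm38 build, Dcn (chr10:97479500-97518163), Lum (chr10:97565501-97572703) and Kera (chr10:97606962-97613688) are neighbours, as are Prelp (chr1:133910304-133930102) and Fmod (chr1:134037254-134048280). Aspn (chr13:49544443-49567565), Omd (chr13:49582462-49592612) and Ogn (chr13:49608015-49624501) form another row. Podn (chr4:108014793-108031954) and Bgn (chrX:73483601-73495936) lie alone. Of the 10 genes, 8 had a start-site sequence in the RefSeq table of GRCm38.p6. In the Aspn, Omd and Ogn row, levels fell on day 1 and were at their highest on day 7, as in all the other genes but Fmod and Kera. The 250 bases before the start are shown for that row and for Fmod, which was higher on day 1. All 4 are read from the + strand, at chr13:49544193-49544442, chr13:49582212-49582461, chr13:49607765-49608014 and chr1:134037004-134037253, with capitals marking matches to the motifs searched.
Aspn: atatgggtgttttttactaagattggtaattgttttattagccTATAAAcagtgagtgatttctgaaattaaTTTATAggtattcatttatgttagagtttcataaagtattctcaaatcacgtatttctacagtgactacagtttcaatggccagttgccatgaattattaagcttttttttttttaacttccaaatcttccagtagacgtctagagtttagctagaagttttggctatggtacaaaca
Omd: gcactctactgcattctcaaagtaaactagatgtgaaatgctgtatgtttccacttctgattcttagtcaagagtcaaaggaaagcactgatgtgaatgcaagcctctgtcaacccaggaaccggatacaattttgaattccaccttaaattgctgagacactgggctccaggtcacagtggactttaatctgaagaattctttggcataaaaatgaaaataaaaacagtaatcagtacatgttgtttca
Ogn: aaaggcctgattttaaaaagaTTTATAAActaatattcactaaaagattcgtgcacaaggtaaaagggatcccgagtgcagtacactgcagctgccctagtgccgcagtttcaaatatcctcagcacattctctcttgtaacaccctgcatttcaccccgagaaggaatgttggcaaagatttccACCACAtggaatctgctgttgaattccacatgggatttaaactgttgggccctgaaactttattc
Fmod: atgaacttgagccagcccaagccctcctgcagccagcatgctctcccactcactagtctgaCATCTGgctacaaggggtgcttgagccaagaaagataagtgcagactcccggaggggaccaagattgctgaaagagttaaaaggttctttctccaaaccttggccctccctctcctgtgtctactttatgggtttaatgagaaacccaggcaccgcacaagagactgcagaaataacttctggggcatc
The motifs, searched on both strands, were the TATA box (TATAAA), a SOX motif (ACAATG), a RUNX motif (TGTGGT), an E-box (CATCTG) and a GC element (GGCGCC). Aspn held TATAAA 207 bases and, on the other strand, 178 bases before its start. Ogn held overlapping matches to TATAAA on the 2 strands, 229 and 227 bases before its start, and the RUNX motif on the other strand 65 bases before. Fmod held the E-box 189 bases before its start, and Omd held none of the 5. Among the windows not shown, Podn, which was lower on day 1, also held the E-box. It lay on the other strand, 82 bases before a start site. Prelp, Kera and Bgn held no match. Among all 32851 start-site sequences, windows of this length held TATAAA in 12.4%, the SOX motif in 10.7%, the RUNX motif in 14.0%, the E-box in 14.4% and the GC element in 9.59%. The bases G and C made up 30% of the Aspn window, 38.4% of Omd, 42.0% of Ogn and 51.2% of Fmod, beside a median of 52.4% over all windows. These are matches of letters and no measure of binding.

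The family as a whole fell on the first day and then rose well above its starting level. The 10 genes together took 0.104% of all UMIs on day 0, 0.0460% on day 1, 0.156% on day 3 and 0.370% on day 7. The summed level was 0.442 times day 0 on day 1 (0.432 to 0.453), 1.504 times on day 3 (1.49 to 1.52) and 3.56 times on day 7 (3.52 to 3.59). All 10 genes were among the 14716 with at least 50 UMIs over the 4 sections. On day 1, 6 of the 10 were at least 2-fold lower, against 11.2% of all genes, and 1 was at least 2-fold higher, against 18.2%. Counts under 3 UMIs were entered at 3, and the day 1 total was the smallest. A gene with at most 3 UMIs on days 0 and 1, such as Col10a1, thus counts as 2.61-fold higher and adds to the 18.2%. Among genes with at least 10 CPM on either day the share was 16.3%. On day 3, 3 of the 10 were at least 2-fold higher, a share close to the 31.8% of all genes, and 1 was at least 2-fold lower, against 7.37%. On day 7, 9 of the 10 were at least 2-fold higher, against 31.0% of all genes, and none was 2-fold lower, against 1.49%. The median log2 ratio to day 0 of the 10 genes was -1.86 on day 1, 0.64 on day 3 and 2.25 on day 7, where that of all genes was 0.17, 0.57 and 0.65.

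**Figure D1:**
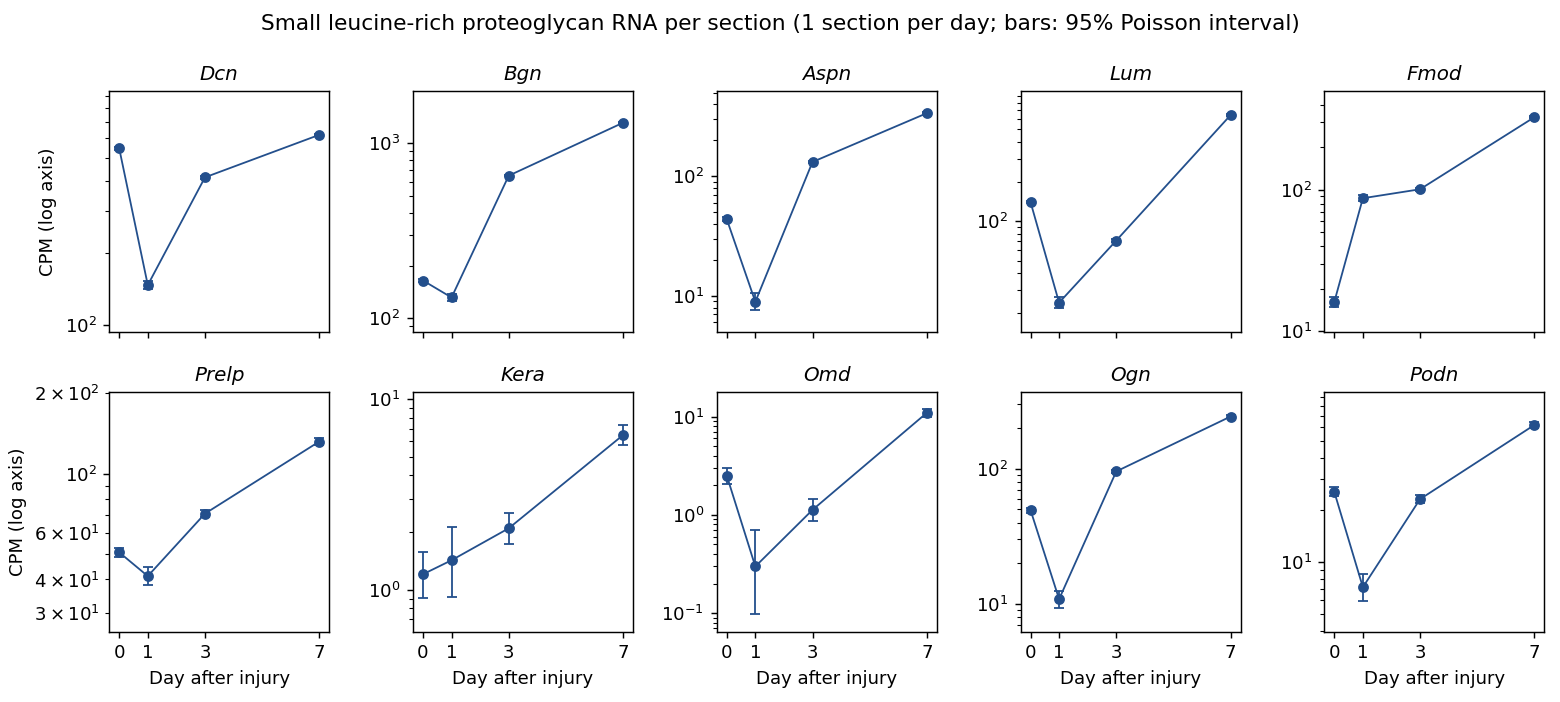
Level of each gene by day, in CPM on a log axis, with 95% Poisson intervals for counting error and 1 section per day; lines only join the points of a gene. Dcn, Aspn, Lum, Omd, Ogn and Podn dip on day 1, Fmod is already higher on day 1 (87.2 against 16.1 CPM on day 0), and Dcn alone is near its day 0 level on day 7 (622 against 546 CPM).

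Decorin and biglycan, close relatives that carry chondroitin or dermatan sulphate, parted over the week. Dcn (ENSMUSG00000019929) was at 546 CPM on day 0, 147 on day 1, 413 on day 3 and 622 on day 7. It fell to 0.270 times day 0 on day 1 (0.259 to 0.281), was still below day 0 on day 3 (0.757 times, 0.744 to 0.771) and ended at 1.14 times (1.12 to 1.16). Bgn (ENSMUSG00000031375) was at 164, 132, 653 and 1312 CPM on the same days. It was 0.800 times day 0 on day 1 (0.762 to 0.839), 3.97 times on day 3 (3.87 to 4.07) and 7.98 times on day 7 (7.78 to 8.18). Aspn (ENSMUSG00000021388), which encodes asporin, a collagen-binding relative of both that lacks the usual chain attachment site, was at 43.9, 8.94, 132 and 338 CPM. Its day 1 level was 0.204 times day 0 (0.171 to 0.240), and it stood at 3.01 times on day 3 (2.86 to 3.16) and 7.70 times on day 7 (7.34 to 8.08). Bgn and Aspn were thus past day 0 by day 3, at a time when Dcn was not.

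Lumican and fibromodulin bind the same stretch of collagen type I, and their RNAs moved in opposite directions on the first day. Lum (ENSMUSG00000036446) was at 140 CPM on day 0, 23.9 on day 1, 71.1 on day 3 and 643 on day 7. It fell to 0.171 times day 0 on day 1 (0.154 to 0.189), was at 0.509 times on day 3 (0.489 to 0.529) and at 4.60 times on day 7 (4.47 to 4.73). Most of its rise therefore lay between days 3 and 7. Fmod (ENSMUSG00000041559) was at 16.1, 87.2, 101 and 326 CPM, with 706, 1463, 5663 and 13655 UMIs behind these values. It was 5.42 times day 0 on day 1 (4.95 to 5.94), 6.27 times on day 3 (5.798 to 6.79) and 20.3 times on day 7 (18.8 to 21.9), the largest ratio of the 10 genes at each of these days. Summed RNA of 5 tendon genes (Scx, Mkx, Tnmd, Thbs4 and Cilp2) was at 87.9, 381, 626 and 377 CPM over the 4 days, also above day 0 from day 1 on. Within that list Thbs4, a thrombospondin of tendon and muscle attachment, went from 73.1 to 346 CPM and Scx, a tendon transcription factor, from 5.27 to 20.4 CPM between days 0 and 1, while Tnmd, tenomodulin, was at 7.18 and 5.19 CPM. How far the amount of tendon in a section moved the Fmod level was not tested.

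Prelp (ENSMUSG00000041577), which encodes a proline- and arginine-rich member that anchors basement membranes to matrix, moved little at first. Its levels were 50.6, 41.2, 70.7 and 132 CPM, or 0.814 times day 0 on day 1 (0.747 to 0.887), 1.40 times on day 3 (1.33 to 1.47) and 2.61 times on day 7 (2.48 to 2.74). Kera (ENSMUSG00000019932), keratocan, is best known from the cornea and is also made in tendon. It was sparse, with 53, 24, 118 and 271 UMIs, or 1.21, 1.43, 2.10 and 6.48 CPM. Its day 1 ratio of 1.18 had an interval of 0.699 to 1.95, so no difference was detectable at that depth, and its day 7 ratio was 5.36 (3.98 to 7.34). Omd (ENSMUSG00000048368), osteomodulin, a keratan sulphate proteoglycan of bone, had 110, 5, 63 and 457 UMIs, or 2.51, 0.298, 1.12 and 10.9 CPM. It was 0.119 times day 0 on day 1 (0.0378 to 0.286), on those 5 UMIs, 0.448 times on day 3 (0.323 to 0.616) and 4.36 times on day 7 (3.53 to 5.42).

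Ogn and Podn are more distant relatives, the first encoding osteoglycin (mimecan) and the second podocan, a collagen-binding member also made by smooth muscle cells. Ogn (ENSMUSG00000021390) was at 49.5 CPM on day 0, 10.8 on day 1, 95.5 on day 3 and 243 on day 7. These were 0.219 times day 0 on day 1 (0.187 to 0.255), 1.93 times on day 3 (1.84 to 2.03) and 4.92 times on day 7 (4.70 to 5.15). Podn (ENSMUSG00000028600) was at 25.4, 7.15, 23.1 and 61.8 CPM. It fell to 0.281 times day 0 on day 1 (0.231 to 0.340), was near its start on day 3 (0.907 times, 0.837 to 0.984) and ended at 2.43 times (2.27 to 2.61). When the 4 days were ordered by level within each gene, neighbouring days differed beyond counting error for 9 of the 10 genes. The exception was Kera, where neither days 0 and 1 nor days 1 and 3 could be told apart.

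**Figure D2:**
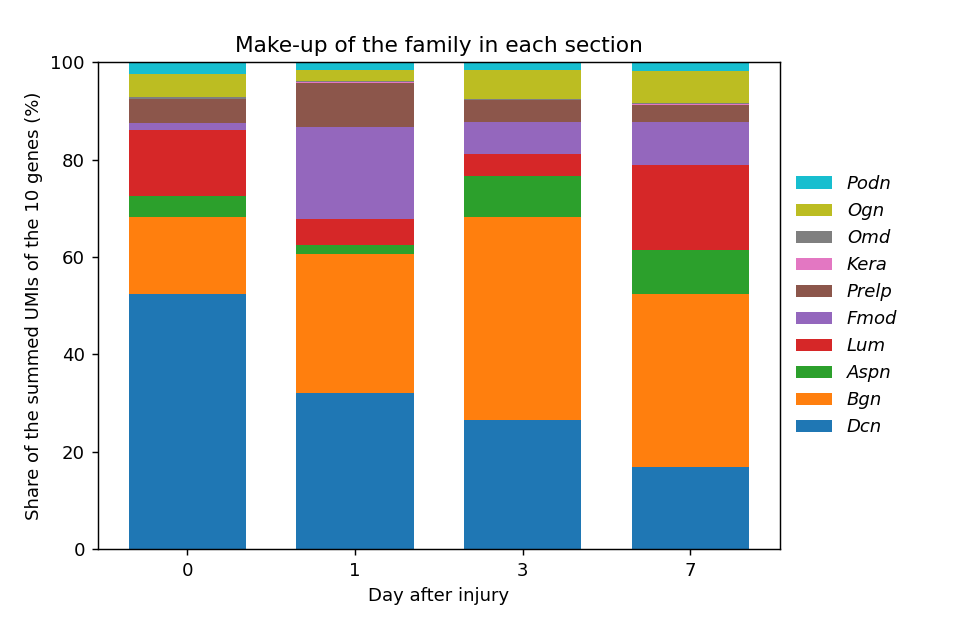
Share of the summed UMIs of the 10 genes held by each gene in each section, in percent. The Dcn share shrinks from 52.5% on day 0 to 16.8% on day 7, Bgn grows from 15.8% to 35.5%, and Fmod holds 19.0% on day 1.

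The make-up of the family, which does not depend on the section total, changed at each day. Dcn held 52.5% of the family's UMIs on day 0, 32.0% on day 1, 26.4% on day 3 and 16.8% on day 7. Bgn held 15.8%, 28.6%, 41.8% and 35.5%. For every Dcn UMI there were 0.301 Bgn UMIs on day 0 (0.294 to 0.309), 0.894 on day 1 (0.844 to 0.947), 1.58 on day 3 (1.55 to 1.61) and 2.11 on day 7 (2.08 to 2.14). The Aspn to Dcn ratio went from 0.0805 on day 0 and 0.0608 on day 1 to 0.320 on day 3 and 0.544 on day 7. Fmod held 1.55% on day 0, 19.0% on day 1, 6.45% on day 3 and 8.83% on day 7, and Lum 13.5%, 5.20%, 4.55% and 17.4%. The Fmod to Lum ratio was accordingly highest on day 1, at 3.65 (3.26 to 4.08), against 0.115 on day 0, 1.42 on day 3 and 0.507 on day 7. Relative to fibrillar collagen, the family had 15.7 UMIs for every 100 of Col1a1, Col1a2 and Col3a1 on day 0, 63.9 on day 1, 33.2 on day 3 and 16.8 on day 7. Collagen RNA thus fell further than that of the family on day 1 and had caught up by day 7.

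The scale set on the sections bears on the smaller differences. Under edgeR TMM factors, which centre the bulk of genes on no change, every log2 ratio is lower by 0.21 on day 1, 0.51 on day 3 and 0.61 on day 7. Dcn on day 7 then lies below day 0 (0.745 times), Prelp on day 3 is level with it (0.985 times), and the family sum is 1.06 times day 0 on day 3 and 2.33 times on day 7. Under TMM 6 of the 10 genes were at least 2-fold lower on day 1, 2 on day 3 and none on day 7, and 1, 3 and 7 were at least 2-fold higher. All genes under TMM split into 14.2% higher and 14.8% lower on day 1, 19.6% and 14.7% on day 3, and 14.0% and 5.61% on day 7. Relative to the other genes, Fmod was still 13.3 times, Bgn 5.22 times and Aspn 5.04 times day 0 on day 7, and Fmod was 4.69 times day 0 on day 1.

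**Figure D3:**
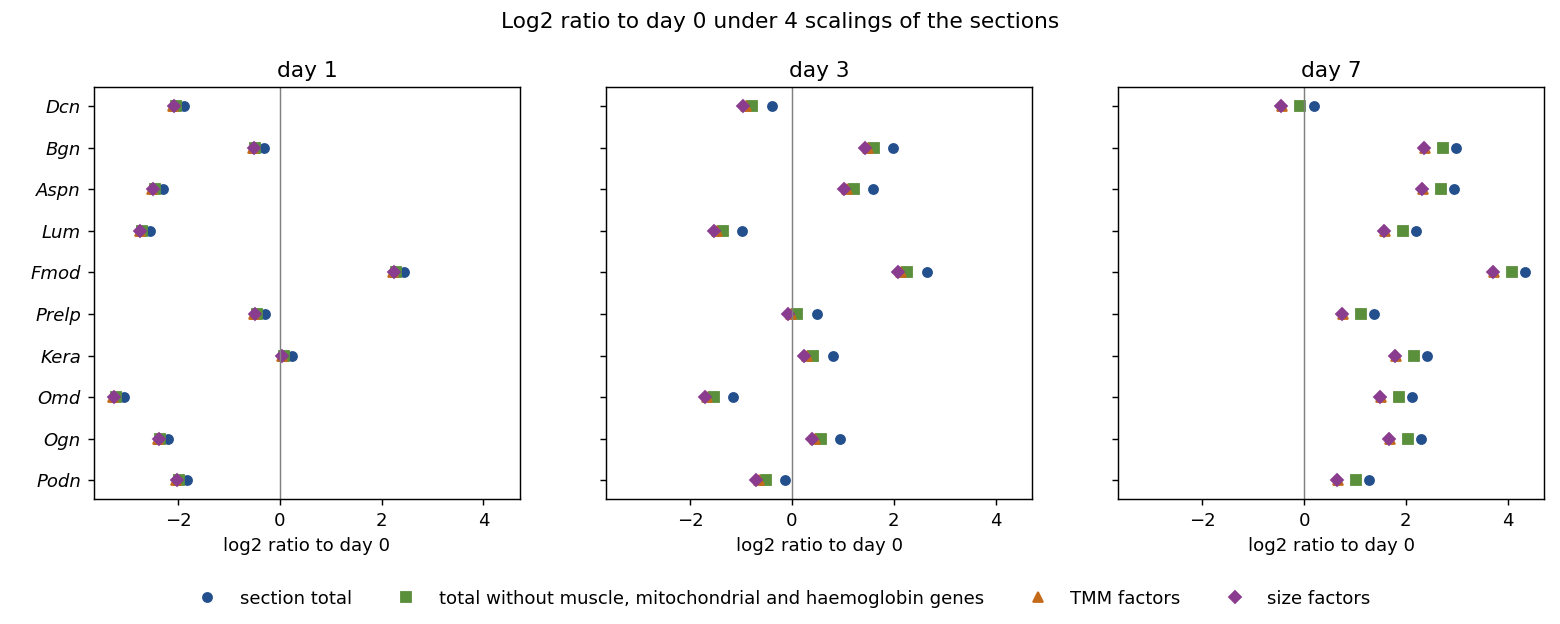
Log2 ratio to day 0 of each gene on days 1, 3 and 7, with 1 marker for each way of scaling the sections (1 section per day). The scalings shift all genes of a day together, and of the 10 genes only Dcn on day 7 and Prelp on day 3 have markers on both sides of 0.

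The matrix partners of the family and the enzymes that build its sugar chains were followed in lists of genes, to be read against the 18.2%, 31.8% and 31.0% of all genes that were at least 2-fold higher on days 1, 3 and 7 and the 11.2%, 7.37% and 1.49% that were lower. Of 8 fibrillar collagen genes, 6 were at least 2-fold lower and none higher on day 1, 2 were higher and 1 lower on day 3, and 6 were higher and none lower on day 7. Col1a1 and Col1a2, the chains of collagen type I, fell from 2253 and 1961 CPM on day 0 to 214 and 283 CPM on day 1, and stood at 10600 and 7966 CPM on day 7. Of 6 fibril-associated and microfibril collagens, 5 were lower on day 1 and 5 higher on day 7, among them Col12a1, which binds fibril surfaces, at 6.70 CPM on day 0 and 665 CPM on day 7. Of 22 genes for the linker, chondroitin and dermatan sulphate enzymes, 4 were higher and 1 lower on day 1, 13 were higher and none lower on day 3, and 16 were higher and none lower on day 7. The day 1 share of these enzymes was thus close to that of all genes. Xylt1, which starts the chain on the core protein, was at 3.65, 5.66, 7.98 and 37.1 CPM, and Chst11, a chondroitin sulfotransferase, at 2.01, 4.59, 8.25 and 25.9 CPM. Dse, the epimerase that turns chondroitin into dermatan sulphate, was highest on day 3 (6.34, 15.1, 30.05 and 20.4 CPM). Of 5 keratan sulphate enzymes, 2 were called higher on day 1 and 3 on days 3 and 7 each. The day 1 call of Chst5 was no measured rise. It had at most 3 UMIs on days 0 and 1, so its ratio of 2.61 is only that of the section totals.

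Of 7 proteases reported to cut these proteoglycans, 2 were higher and 3 lower on day 1, 3 higher on day 3, and 6 higher on day 7, none being lower at the later days, and the shares higher on days 1 and 3 were not far from those of all genes. Bmp1, which removes the propeptide of biglycan, was at 53.6, 24.2, 84.3 and 242 CPM, and Mmp2 at 132, 38.4, 124 and 553 CPM. Of the 8 of 9 receptors reported for decorin or biglycan with enough UMIs, 4 were higher on day 1, 6 on day 3 and 5 on day 7. Tlr2, a receptor for soluble biglycan on immune cells, was at 1.64, 7.87, 27.0 and 10.5 CPM, and Cd44 at 16.9, 87.9, 150 and 57.2 CPM. Macrophage list RNA moved alongside, at 389, 1490, 7523 and 1956 CPM, and its part in the receptor values was not tested. Among 8 further leucine-rich proteoglycans outside the 10, 5 had at least 50 UMIs, and 4 of these were higher on day 7. Chad, chondroadherin, was at 1.19 CPM on day 0 and 12.7 CPM on day 1, and Ecm2, the neighbour of Aspn, at 23.2, 5.01, 18.1 and 33.2 CPM. Several of these counts depend on the scale. Under TMM none of the 8 fibrillar collagens was higher on day 3 and 4 were lower, and on day 7 6 were higher and 1 lower. Of the fibril-associated and microfibril collagens 3 were lower and 1 higher on day 3 under TMM, against none and 2 without it, and 3 were higher on day 7. The chain enzymes higher under TMM numbered 2, 7 and 12 on days 1, 3 and 7, and the receptors higher on day 7 numbered 3, or 2 under DESeq2 size factors. The list medians on day 7, on the log2 scale, were 2.02 for fibrillar collagens, 1.66 for chain enzymes, 1.98 for proteases and 1.28 for receptors, beside 0.65 for all genes.

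To see where in the tissue the 10 genes lay, the spots of each section were clustered on other genes, with the 10 genes and all marker lists left out, which gave 5 regions on day 0 and 8 at each later day. Regions are named by their leading genes, those with the largest ratio to the rest of the section. On day 7 a region of 288 spots led by Col10a1, Col9a1, Col2a1, Col9a3 and Slc13a5 had the most chondrogenic list RNA, 7293 CPM against 632 CPM in the other spots. It made up 9.50% of the spots and held 27.1% of the family's UMIs, and the family level there was 10459 CPM against 2979 CPM elsewhere. Adult myofibre RNA was lower there, at 33704 against 156932 CPM, and with fibre, mitochondrial and haemoglobin genes left out of the totals the log2 ratio of the family was 1.41, against 1.81 with them.

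**Figure D4:**
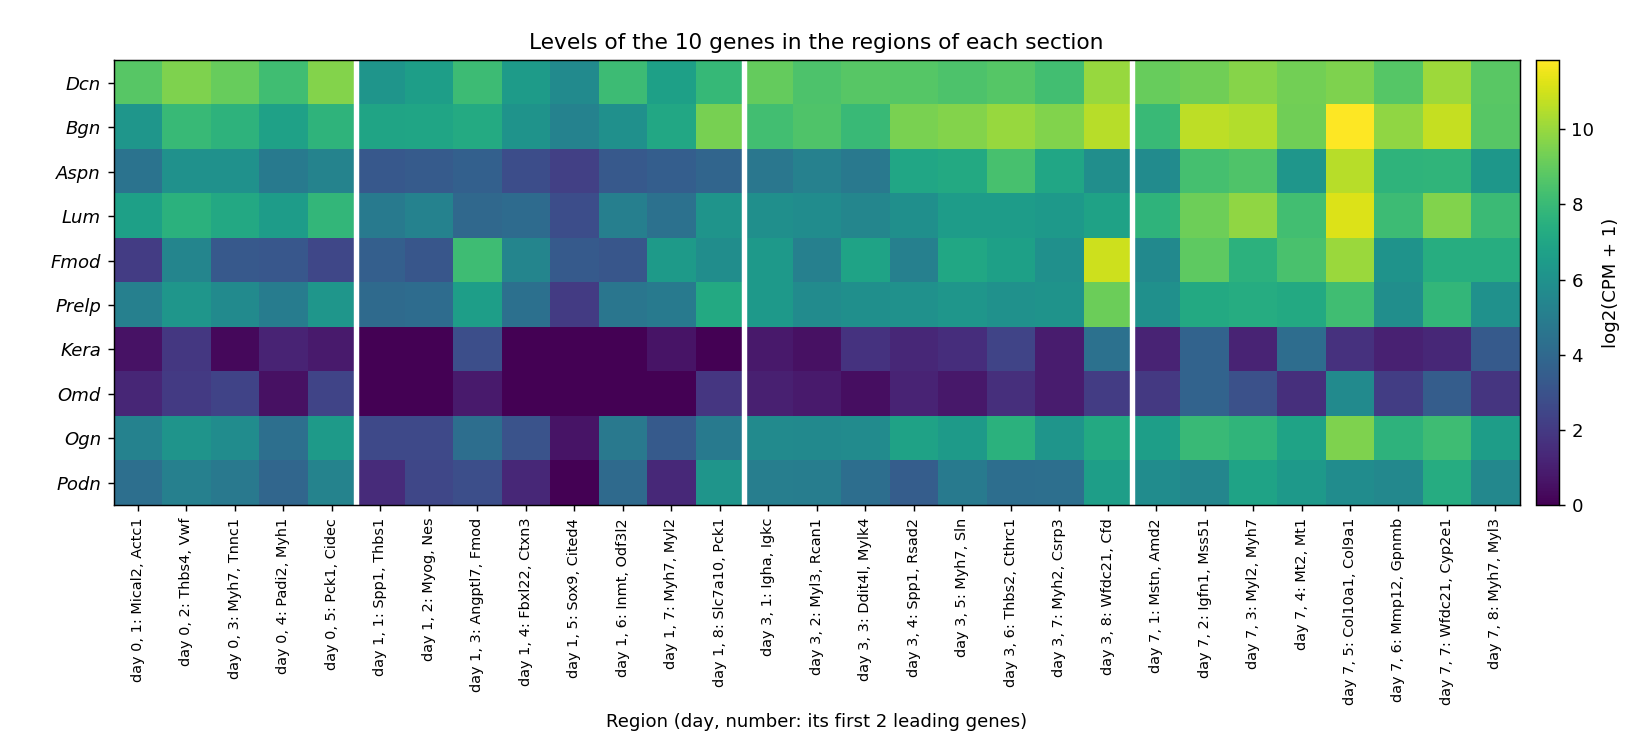
Level of each gene, as log2(CPM + 1), in the 29 regions of the 4 sections, each column a region with its day, number and first 2 leading genes, white lines parting the days. On day 7 the Col10a1-led region is the brightest column for Bgn, Lum, Aspn, Fmod, Ogn, Prelp and Omd, whereas Dcn and Podn peak in the Wfdc21-led region and Kera in the Mt2-led one.

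Within the Col10a1-led region the genes split. Aspn was at 1518 CPM inside and 213 CPM outside, a ratio of 7.12 (6.89 to 7.37), and Omd at 48.9 and 6.90 CPM, a ratio of 7.09 (5.86 to 8.56). Lum followed with 2341 against 463 CPM (5.05 times, 4.93 to 5.18), then Fmod with 1075 against 247 CPM (4.35 times, 4.19 to 4.51) and Ogn with 736 against 191 CPM (3.85 times, 3.69 to 4.02). Bgn was at 3640 against 1065 CPM (3.42 times, 3.35 to 3.48) and Prelp at 290 against 115 CPM (2.52 times, 2.36 to 2.69). Dcn differed little, at 752 against 608 CPM (1.24 times, 1.19 to 1.29), and its direction turned when regions were cut finer or fibre genes were left out of the total. Podn was at 53.7 against 62.7 CPM (0.856 times, 0.741 to 0.985) and Kera at 2.25 against 6.93 CPM (0.324 times, 0.147 to 0.625). Fibrillar collagen RNA was at 98268 CPM in this region and osteogenic list RNA at 1860 CPM. Aspn depended most on how the region was drawn: at a finer clustering its ratio was 2.22, and in the 10% of spots richest in chondrogenic genes 4.42.

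**Figure D5:**
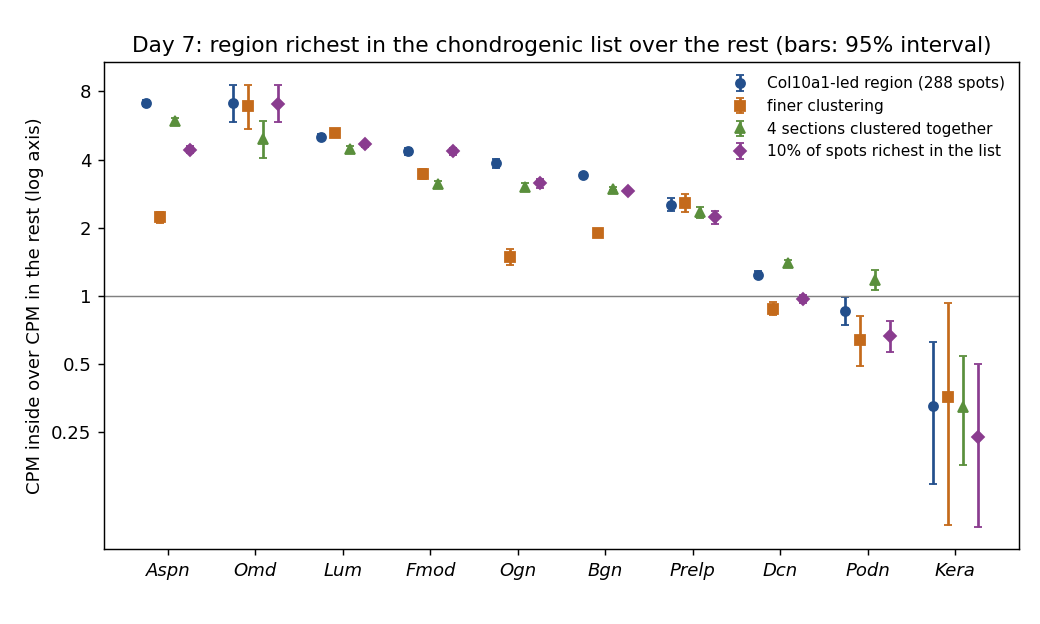
Ratio of the CPM of each gene inside the day 7 area richest in chondrogenic list genes to the CPM in the rest of the section (log axis), for 4 ways of drawing the area, with 95% counting intervals. Omd, Lum, Fmod and Prelp lie above 2 and Kera below 1 however the area is drawn, while Aspn ranges from 2.22 to 7.12 and Dcn and Podn lie on either side of 1.

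In the other 2744 spots of the day 7 section, 9 of the 10 genes were still at least 2-fold above the whole day 0 section, against 25.6% of all genes. Chondrogenic list RNA in those spots, at 632 CPM, was also above its level of 70.2 CPM in the whole day 0 section. Fmod there was 15.4 times day 0 (14.2 to 16.6), Bgn 6.48 times (6.32 to 6.64), Kera 5.73 times (4.25 to 7.86) and Aspn 4.85 times (4.62 to 5.10). Ogn was 3.86 times, Lum 3.31 times, Omd 2.75 times, Podn 2.47 times and Prelp 2.28 times day 0, and Dcn 1.11 times. A region of 673 spots led by Igfn1, Mss51, Tnmd, Sbk2 and Myoc held a further 33.7% of the family's UMIs at 4089 CPM, with chondrogenic list RNA at 1230 CPM. Dcn and Podn were highest on day 7 in a region of 196 spots led by Wfdc21, Cyp2e1, Nnat, Cfd and Hp, at 1100 and 161 CPM. Several cell type lists were also at their day 7 highest in this region, with adipocyte list RNA at 2770 CPM, MSC list RNA (genes such as Pdgfra and Prrx1) at 2331, smooth muscle at 1812, resident fibroblast at 1309.5, Schwann cell at 944, endothelial at 891 and neutrophil at 24.96 CPM. The part of each in the Dcn and Podn values was not tested.

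Fmod was most concentrated in 1 region each on days 1 and 3. On day 1 it was at 288 CPM in 408 spots led by Angptl7, Fmod, Mss51, Mgp and Thbs4, and at 29.1 CPM in the rest (9.89 times, 8.79 to 11.1). Tendon list RNA in these spots was 1027 CPM against 194 CPM elsewhere. The same spots held 42.2% of the family's UMIs, 23 of the 24 Kera UMIs of the section, and Prelp at 97.0 against 25.1 CPM (3.87 times, 3.32 to 4.51), while Lum was lower there than elsewhere (15.1 against 26.4 CPM), a ratio that turned to 1.09 in the 10% of spots richest in tendon genes. Lum, Bgn, Prelp and Podn were highest on day 1 in 198 spots led by Slc7a10, Pck1, Arxes2, Cyp2e1 and Nnat, where Bgn reached 680 CPM and Podn 71.7 CPM. The family sum was at its day 1 highest there, at 1305 CPM, against 864 CPM in the Angptl7-led spots. Ogn, Aspn and Omd were also highest in the 198 spots, though on 21, 10 and 2 UMIs. Adipocyte (4486 CPM), MSC (2116 CPM), smooth muscle (1272 CPM), Schwann cell (944 CPM), endothelial (879 CPM) and neutrophil (468 CPM) list RNA were each at their day 1 highest in these spots as well, and the part of each was not tested. On day 3 Fmod reached 1933 CPM in 73 spots led by Wfdc21, Cfd, Hp, Pck1 and Cidec, against 81.3 CPM in the rest (23.8 times, 22.3 to 25.4). Adipocyte (12027 CPM), MSC (2455 CPM), resident fibroblast (1733 CPM), tendon (1373 CPM) and endothelial (432 CPM) list RNA were each at their day 3 highest in these 73 spots. The part of each in the Fmod value was not tested. Kera (20.2 against 1.91 CPM) and Prelp (581 against 65.2 CPM) were also higher there, and Aspn was lower (57.1 against 133 CPM). In the 303 spots richest in tendon genes, a set drawn without clustering, Fmod was at 504 against 47.4 CPM (10.6 times), Kera at 12.2 against 0.767 CPM, and Aspn was higher (199 against 123 CPM). With the 4 sections clustered together the tendon-richest day 3 area was a wider one of 446 spots, where Fmod was at 201 against 89.8 CPM (2.24 times, 2.10 to 2.39). Aspn was highest on day 3 in another region, 357 spots led by Thbs2, Cthrc1, Aspn, Postn and Tubb2b, at 329 CPM.

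Before injury Fmod and Kera already lay together. In 519 day 0 spots led by Thbs4, Vwf, Cilp, Tagln and Eln, which had the most tendon list RNA (176 against 52.9 CPM), Fmod was at 41.2 against 6.17 CPM (6.68 times, 5.65 to 7.92) and Kera at 2.82 against 0.572 CPM (4.92 times, 2.71 to 9.23). A single spot held 15 of the 35 Kera UMIs there, and with that spot left out, a step added once the counts per spot were known, the Kera ratio was 2.82 (1.42 to 5.65). The other 8 genes differed by less than 2-fold between those spots and the rest. Outside the region with the most tendon list RNA, Fmod was at 6.17 CPM on day 0, 29.1 on day 1, 81.3 on day 3 and 247 on day 7. Tendon list RNA in the same remaining spots was 52.9, 194, 618 and 356 CPM, so these spots were also richer in RNA of that list after injury than before. In the whole sections of days 0 and 1 most of that RNA was Thbs4, and the genes of the list were not separated in these spots. On day 7 that region was the Col10a1-led one (573 CPM of tendon list RNA), with the Mt2-led region close behind (561 CPM). Kera was highest in the latter, at 17.6 CPM (13.4 to 22.6). In the 303 day 7 spots richest in tendon genes Kera was at 40.2 against 2.36 CPM, a ratio of 17.03, so that its place on day 7 depends on how that area is drawn.

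The share of spots in which a gene was seen was compared after every spot was thinned to 2000 UMIs, which left out 17, 513, 9 and 84 shallower spots on days 0, 1, 3 and 7. On day 1 these were not spread evenly. A region of 512 spots led by Spp1 and Thbs1, with the most macrophage list RNA (4711 CPM), had a median of 1303.5 UMIs per spot. Much of it is thus missing from the day 1 shares and from the day 1 spot correlations below. At least 1 of the 10 genes was seen in 80.0% of spots on day 0, 43.4% on day 1, 86.7% on day 3 and 95.1% on day 7. Dcn was seen in 60.1%, 19.7%, 51.9% and 63.3% of spots, and Bgn in 23.4%, 19.4%, 58.3% and 70.5%. Fmod went from 2.27% on day 0 to 9.09%, 11.8% and 32.8%, and Lum from 23.5% to 4.95%, 12.1% and 56.3%. Aspn was seen in 7.90%, 1.65%, 16.0% and 31.3% of spots. For these 5 genes the order of the days by share was that of their levels. Free RNA moving between spots can add to such shares, and its amount was not tested.

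Across the 29 regions, the genes most like each member in log2(CPM + 10) were found among 11266 genes with at least 500 UMIs. Regions of a section share a library, so the values of Pearson's r are descriptions. Fmod was most like Comp (0.907) and Tnmd (0.897), and Kera most like Tnmd (0.873) and Cilp2 (0.840), Tnmd and Cilp2 being genes of the tendon list. Aspn was most like Col5a2 (0.962) and Loxl2 (0.961), and Ogn most like Fndc1 (0.971) and Mmp2 (0.960). Lum was most like Laptm4a (0.961) and Col6a1 (0.960), Bgn most like Mrc2 (0.965) and Mtch1 (0.961), and Dcn most like Pcolce (0.936) and Cpq (0.922). Omd was most like S100b (0.973) and Fgfr2 (0.966), Podn most like C1ra (0.962) and C1s1 (0.952), and Prelp most like Serpinf1 (0.904) and Ltbp3 (0.900). Omd and Kera were each at 10 CPM or more in 3 of the 29 regions only, so that most of their levels lay under the 10 CPM added before taking logs. By Spearman's rho Omd was instead most like Col6a2 (0.942) and Col6a1 (0.940), and both named genes were also other ones by rho for Bgn, Ogn and Prelp. Of the named genes, rho kept only Comp for Fmod, Tnmd for Kera, Laptm4a for Lum and Cpq for Dcn. Without the region where it was highest, the r of Omd was 0.940 with S100b and 0.894 with Fgfr2, and that of Kera 0.810 with Tnmd and 0.778 with Cilp2. Between members the closest pair was Aspn and Ogn (0.931) and the least alike were Kera and Omd (0.189).

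From spot to spot within a section, the summed RNA of the 10 genes followed that of fibrillar collagens. Spearman's rho over the thinned spots, the mean of 20 draws, was 0.427 on day 0 (2090 spots), 0.447 on day 1 (2154 spots), 0.482 on day 3 (3020 spots) and 0.767 on day 7 (2948 spots). Spots share a library and neighbours share tissue, so no p is given. After the share of adult myofibre RNA was taken into account the values were 0.378, 0.442, 0.373 and 0.542. On day 7 the family sum had a rho of 0.497 with chondrogenic list RNA, 0.282 given the myofibre share, and -0.669 with adult myofibre RNA itself. By gene, rho with chondrogenic list RNA on day 7 was 0.447 for Bgn, 0.412 for Lum, 0.386 for Fmod and 0.368 for Aspn, and 0.0284 for Dcn. Between pairs of members the median rho was 0.0326 on day 0, 0.0555 on day 1, 0.0372 on day 3 and 0.0918 on day 7, where the highest, for Lum and Bgn, was 0.407. At 2000 UMIs most members are absent from most spots, so that little can be read from values this low. These correlations were higher at greater depth: at 4000 UMIs per spot the median over pairs was 0.0447, 0.0595, 0.0634 and 0.129 on the 4 days, and the family sum with fibrillar collagens had 0.546, 0.535, 0.590 and 0.844. On day 1 Omd was too sparse to enter, leaving 36 of the 45 pairs.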

How the data were processed

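Visium sections of tibial muscle were analysed from the counts the authors deposited: UMIs per gene and spot, not normalized, aligned to mm10 per the labels, with Space Ranger 1.2.0 named in the table headers and spots over tissue already selected. No other columns or samples were used. UMIs were summed per section, scaled to CPM over all genes, and compared with day 0. Exact Poisson (CPM), conditional binomial (ratios) and Clopper-Pearson (shares) intervals at 95% cover counting error only, and a section or area under 3 UMIs was entered at 3. Called means at least 2-fold, among genes with at least 50 UMIs. Spots were clustered with Scanpy 1.11.5 and leidenalg 0.10.2 (scale 10000, 2000 variable genes, 30 components, 15 neighbours, resolution 0.5, seed 1, regions of at least 20 spots). Leading genes had at least 50 CPM, and the 5 with the largest ratio are named. Doublets do not apply to spots. For each member the 2 most alike genes are named. Scalings by edgeR 4.0.16 and DESeq2 1.42.0, other filters, thresholds, thinning depths and clusterings were alternatives. The ratio and rho steps were tested on simulated data. The members, the lists and the motifs were chosen with earlier results of these data known.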

Additional observations from a re-analysis of the deposited data

How the results depend on the processing

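No paired analysis was possible because each group held 1 section, and no section could be left out for the same reason. Counts of the 10 genes on days 1 and 7 stayed within 1.5 times under each alternative run, and on day 3 the genes at least 2-fold higher numbered 5 at a 1.5-fold threshold and 1 at a 4-fold one. Those 2-fold lower on day 3 numbered 2 under TMM, DESeq2 size factors, the total without fibre, mitochondrial and haemoglobin genes, and a 1.5-fold threshold, and 0 at a 4-fold threshold and with a minimum of 10 CPM. Among all genes the share at least 2-fold higher on day 7 was 31.0%, 14.0% under TMM, 13.7% under DESeq2 and 22.9% with that minimum. The share lower was 1.49%, 5.61% and 5.88% under the first 3 of these, and 2.47% with the total without fibre genes. On day 3 the share higher, 31.8%, was 19.6% under TMM and 18.6% under DESeq2, and the share lower, 7.37%, was 14.7% and 15.6%. Without a filter 31.3% were higher on day 1, a share that includes genes with at most 3 UMIs on both days.

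The log2 ratio of the family sum on days 1, 3 and 7 was -1.38, 0.084 and 1.22 under TMM, -1.37, 0.032 and 1.196 under DESeq2, and -1.34, 0.21 and 1.57 with the total without fibre genes. The median of the 10 genes gave -1.86, 0.64 and 2.25, and on day 7 the spots outside the Col10a1-led region, an alternative chosen after seeing the data, gave 1.52. Dcn on day 7 turned to -0.42, -0.45 and -0.073 under the 3 scalings, and Prelp on day 3 to -0.022 under TMM and -0.074 under DESeq2. A scaling shifts all genes of a day together.

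In the area richest in chondrogenic genes, the family's log2 ratio was 1.25 at resolution 1, 1.59 with the 4 sections clustered together, 1.57 in the richest 10% of spots and 1.41 without fibre genes. Dcn there turned to -0.19 at resolution 1, -0.054 in the richest 10% and -0.089 without fibre genes, and Podn to 0.23 with the sections together. In the area richest in tendon genes the family gave, on day 0, 1.01 at resolution 1, 0.55 in the richest 10% and 0.72 without fibre genes; on day 1, 1.52, 0.81 with the sections together, 1.95 and 1.43; on day 3, -0.39 with the sections together, 1.03 and 1.73; and on day 7, 0.35 at resolution 1, 1.59, 1.08 and 1.41. With the sections together, Bgn turned to -0.15 on day 1, and on day 3 Lum to -0.81, Bgn to -1.14, Ogn to -0.65 and Podn to -0.28, and Podn to 0.23 on day 7. At resolution 1 the day 7 area was another one, where Lum was -0.36, Bgn -0.053, Aspn -1.29, Kera 3.46, Omd -1.61 and Podn 1.22. In the richest 10%, Lum turned to 0.12 on day 1, Aspn to 0.69 on day 3, and Kera to 4.09 and Podn to 0.45 on day 7, and without fibre genes Dcn turned to -0.089 on day 7. Clustered together, 2105 of the 2107 day 0 spots fell into 1 region, so that no comparison could be made there. Given the myofibre share, the rho of the family sum on day 7 turned to -0.024 with regenerating muscle, -0.032 with adipocyte and -0.011 with endothelial genes. Beyond the scaling, the cause was not tested. Depth limits Kera and Omd most, with 24 and 5 UMIs on day 1.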
